A study of Mus musculus with 6 samples.

Results

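The regions described here are the KAP1 peaks of the hybrid mouse embryonic stem cell (ESC) line JB1 for which the other line, BJ1, had no counterpart. They were selected on overlap: a peak of the JB1 KAP1 list on chromosomes 1 to 19 was taken when it shared no base (minimum overlap of 1 bp) with any KAP1 peak of BJ1 or any ZFP57 peak of either line. Of the 38713 KAP1 peaks of JB1, 36174 were autosomal and 4764 met this rule, or 13.2% of the autosomal peaks (exact Clopper-Pearson 95% interval 12.8 to 13.5%). They covered 2305 kb, which was 7.09% of the length of the autosomal JB1 KAP1 peaks. JB1 came from a cross in which the mother was JF1 and the father B6, and BJ1 from the reciprocal cross, and both are male lines that were grown without feeders on gelatin in medium with serum and leukemia inhibitory factor. JF1 is an inbred strain of *Mus musculus molossinus* and B6 of *M. m. domesticus*, so that on the autosomes the lines have 1 copy of each genome and differ in which parent gave it. KAP1 and ZFP57 were immunoprecipitated from formaldehyde cross-linked chromatin and sequenced once in each line, beside an input library per line that was not used here.

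KAP1, also known as TRIM28, does not bind DNA by itself. It is brought to its targets by zinc finger proteins with a KRAB domain, of which ZFP57 is an example, and it recruits the histone methyltransferase SETDB1, which deposits H3K9me3. In ESCs this machinery is known for the silencing of endogenous retroviruses and other repeats and, together with ZFP57, for the maintenance of methylation at imprinting control regions. ZFP57 recognises the methylated hexanucleotide TGCCGC, and GGCCGC is a variant of it. The cell type could not be checked against marker genes, since the data used here hold no expression values. Because the lists give positions only, a region absent from the BJ1 list was not necessarily unbound in BJ1: how far below the threshold of the peak caller it lay there was not tested. With a single library per line and antibody no test across samples was possible. The values of the JB1-only peaks are therefore set without a test beside those of the 26177 autosomal JB1 KAP1 peaks that overlapped a BJ1 KAP1 peak but no ZFP57 peak (shared peaks) and of the 37554 autosomal BJ1 KAP1 peaks that overlapped no JB1 KAP1 and no ZFP57 peak (BJ1-only peaks). The BJ1 KAP1 list was longer, with 72535 peaks, and the ZFP57 lists had 10667 peaks in JB1 and 1318 in BJ1. BJ1-only peaks made up 54.8% of the 68471 autosomal peaks of their list.

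The sequences below show how different the JB1-only peaks were from each other. Each is the plus strand of mm9 and covers at most 300 bp at the centre of the peak, and capitals mark the letters TGCCGC and GGCCGC on either strand (GCGGCA and GCGGCC as read here). The widest peak lay in an array of a short unit, one of the pair farthest from any BJ1 KAP1 peak in sequence without a repeated word, and the peak richest in TGCCGC in a run of CAG-like triplets. The peak at the start of *Mcts2* held 3 separate copies of TGCCGC.
Widest, intergenic, chr10:7232176-7232475: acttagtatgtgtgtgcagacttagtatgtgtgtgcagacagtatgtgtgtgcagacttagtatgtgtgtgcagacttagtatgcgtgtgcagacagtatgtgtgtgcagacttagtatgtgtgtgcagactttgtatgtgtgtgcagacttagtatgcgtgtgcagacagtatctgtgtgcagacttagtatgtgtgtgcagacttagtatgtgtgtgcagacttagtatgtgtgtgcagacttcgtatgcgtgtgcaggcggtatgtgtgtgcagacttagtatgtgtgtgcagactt
Farthest from a BJ1 KAP1 peak, tied with a peak in *Robo2*, intergenic, chr7:102951751-102952050: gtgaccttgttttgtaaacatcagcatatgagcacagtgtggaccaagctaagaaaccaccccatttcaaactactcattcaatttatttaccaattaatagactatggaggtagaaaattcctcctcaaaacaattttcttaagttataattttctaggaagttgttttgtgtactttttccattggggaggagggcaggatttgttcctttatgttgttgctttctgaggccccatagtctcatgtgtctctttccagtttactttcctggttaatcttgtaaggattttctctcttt
Most copies of TGCCGC, intergenic, chr2:133059676-133059975: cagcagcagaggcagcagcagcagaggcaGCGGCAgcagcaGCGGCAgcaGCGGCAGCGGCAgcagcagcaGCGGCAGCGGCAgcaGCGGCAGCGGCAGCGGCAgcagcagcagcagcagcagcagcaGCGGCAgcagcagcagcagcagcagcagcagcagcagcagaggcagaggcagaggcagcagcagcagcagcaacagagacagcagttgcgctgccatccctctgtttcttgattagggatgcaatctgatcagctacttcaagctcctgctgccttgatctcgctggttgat
Over the start of *Mcts2*, chr2:152512426-152512725: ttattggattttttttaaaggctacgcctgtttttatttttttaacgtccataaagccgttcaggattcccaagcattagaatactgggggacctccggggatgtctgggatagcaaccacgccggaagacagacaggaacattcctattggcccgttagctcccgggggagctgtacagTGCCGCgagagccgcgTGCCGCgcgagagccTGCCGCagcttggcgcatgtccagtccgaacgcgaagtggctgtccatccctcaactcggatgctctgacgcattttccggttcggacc

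The 3 promoter peaks that follow were picked by rule as the first, in genome order, of 300 bp that held TGCCGC within 1 kb of a protein-coding start, and they show the motif in narrow peaks. None of the 31-base words examined in them occurred elsewhere in the genome. They lay at *Itga8*, which encodes an integrin subunit, *Pde11a*, a cyclic nucleotide phosphodiesterase, and *Arhgef16*, a guanine nucleotide exchange factor.
Promoter, over a start of *E030013I19Rik* and 465 bp from a start of *Itga8*, chr2:12222451-12222750: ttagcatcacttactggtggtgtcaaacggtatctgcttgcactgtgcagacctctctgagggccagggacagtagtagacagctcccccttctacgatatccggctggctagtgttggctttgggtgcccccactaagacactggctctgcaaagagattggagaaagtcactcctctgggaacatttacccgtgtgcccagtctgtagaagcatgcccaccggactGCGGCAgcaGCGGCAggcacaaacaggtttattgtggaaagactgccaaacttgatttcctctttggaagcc
Promoter, over a start of *Pde11a*, chr2:76176751-76177050: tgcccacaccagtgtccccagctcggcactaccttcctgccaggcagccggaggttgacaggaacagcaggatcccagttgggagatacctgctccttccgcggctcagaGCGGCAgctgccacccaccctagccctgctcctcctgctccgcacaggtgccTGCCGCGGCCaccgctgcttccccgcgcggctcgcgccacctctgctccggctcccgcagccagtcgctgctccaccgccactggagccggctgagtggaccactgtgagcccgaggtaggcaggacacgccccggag
Promoter, 201 bp from a start of *Arhgef16*, chr4:153673501-153673800: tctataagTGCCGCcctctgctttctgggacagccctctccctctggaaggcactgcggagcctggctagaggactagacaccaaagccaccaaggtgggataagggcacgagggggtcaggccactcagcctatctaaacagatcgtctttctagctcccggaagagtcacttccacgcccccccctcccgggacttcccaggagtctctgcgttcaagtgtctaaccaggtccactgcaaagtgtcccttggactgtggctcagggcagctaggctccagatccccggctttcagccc

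The JB1-only peaks were narrow. Peak edges fell on multiples of 150 bp, and widths and distances are therefore known in these steps. The median width was 450 bp (quartiles 300 and 600 bp, mean 484 bp ± 230, SD over 4764 peaks), against 600 bp in both the shared and the BJ1-only peaks. A width of 300 bp, the smallest in the lists, was found in 1485 of the JB1-only peaks (31.2%), in 7.04% of the shared and in 14.8% of the BJ1-only peaks. Only 100 JB1-only peaks (2.10%) were wider than 1 kb, against 18.7% and 5.84%, and 7 were wider than 2 kb. Read from the whole list, 43.9% of the autosomal JB1 KAP1 peaks of 300 bp were JB1-only, 23.7% of those of 450 bp, 11.3% of those of 600 bp, and 0.882% of those of 1200 bp or more. A wide peak has more bases with which to meet a peak of another list, so that width is tied to the selection and is given as a description.

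**Figure D1:**
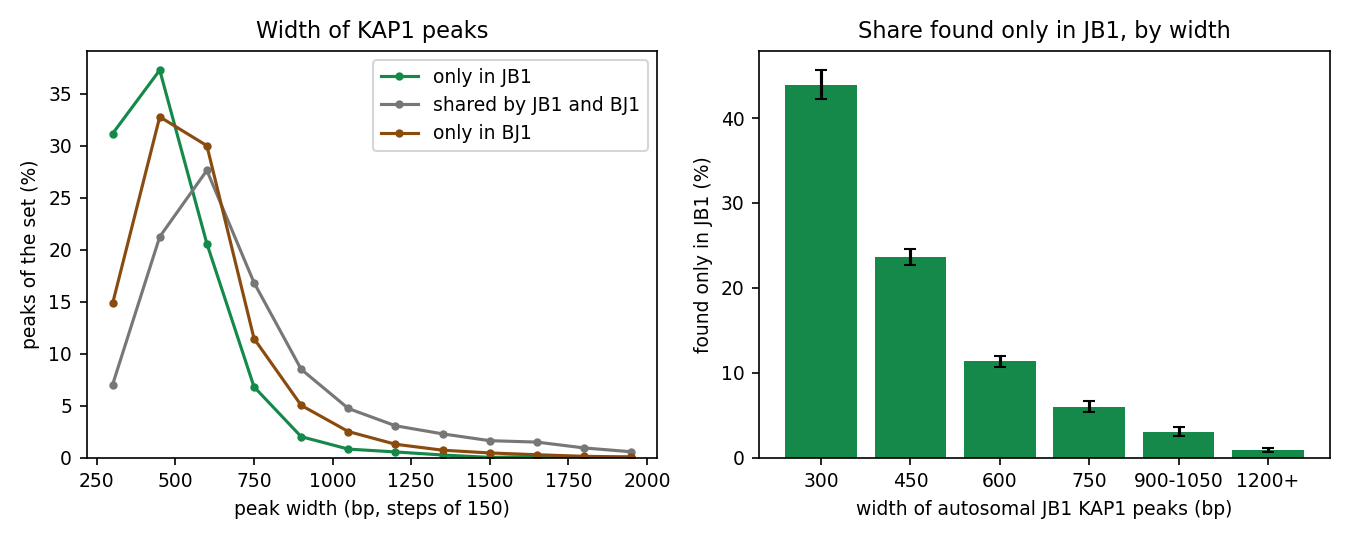
Left, the share of KAP1 peaks (%) at each width (bp, steps of 150; peaks wider than the axis are not drawn) in the JB1-only, shared and BJ1-only sets. Right, the share (%) of autosomal JB1 KAP1 peaks found only in JB1 by width class, with exact 95% intervals. The JB1-only set was highest at 450 bp and the shared set at 600 bp, and the share found only in JB1 fell from 43.9% at 300 bp to 0.882% at 1200 bp or more.

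The 5 widest JB1-only peaks were intergenic. The widest measured 6450 bp (chr10:7229101-7235550), lay 34.95 kb from the nearest BJ1 KAP1 peak and had 79.6% of its words repeated in the genome. A peak of 5250 bp (chr18:3114901-3120150) was 3.32 kb from the start of *Vmn1r238*, a vomeronasal receptor gene. The peaks of 3750 bp (chr2:181651801-181655550) and 3150 bp (chr2:181655701-181658850) were neighbours, separated by a single window of 150 bp. The fifth, of 2850 bp (chr1:84951451-84954300), lay 21.15 kb from the nearest BJ1 KAP1 peak. None of the 5 was within 3 kb of a BJ1 KAP1 peak.

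Many of the JB1-only peaks lay close to a BJ1 KAP1 peak without meeting it. The median distance was 2.25 kb (95% interval of the median 1950 to 2550 bp), the quartiles were 450 bp and 14.7 kb, and the largest distance was 258 kb. Of the 4764 peaks, 1850 (38.8%, 37.4 to 40.2%) were within 1 kb, 1430 (30.0%) at 1 to 10 kb, 1418 (29.8%) at 10 to 100 kb, and 66 (1.39%) farther away. At the edge of the rule, 332 JB1-only peaks (6.97%) directly touched a BJ1 KAP1 peak and 325 were separated from it by 1 window. Just outside it, 241 autosomal JB1 KAP1 peaks overlapped a BJ1 KAP1 peak by a single window of 150 bp and so were not selected. The shared peaks, measured to the nearest BJ1 KAP1 peak that they did not overlap, had a median of 2.85 kb, with 32.2% within 1 kb. BJ1-only peaks were farther from the shorter JB1 KAP1 list (median 27.2 kb, 7.05% within 1 kb). Windows of 450 bp sampled every 100 kb and lying outside BJ1 KAP1 peaks had a median of 16.6 kb, with 4.80% within 1 kb.

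**Figure D2:**
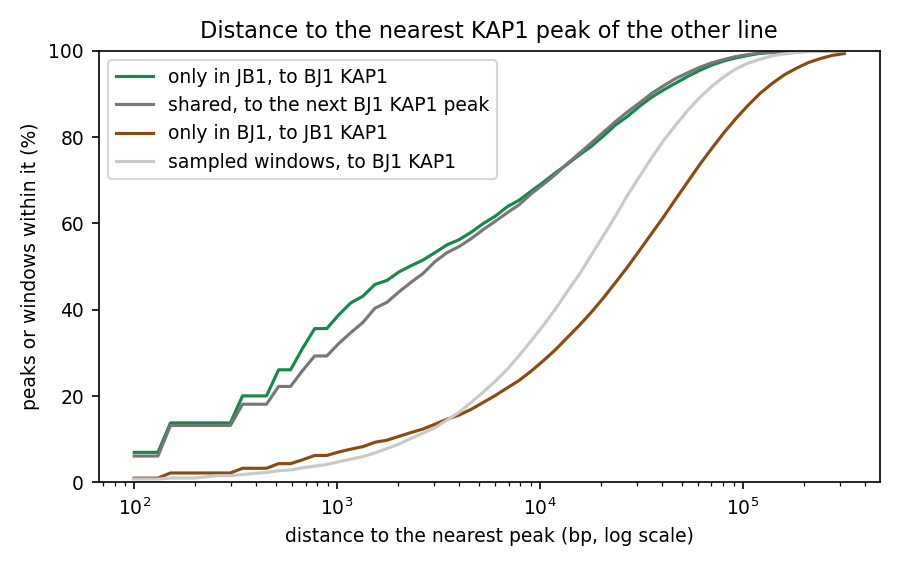
Cumulative share (%) of peaks or sampled windows against the distance to the nearest peak (bp, log scale). The curve of the JB1-only peaks rose early, with 38.8% within 1 kb, and ran near that of the shared peaks, while those of the BJ1-only peaks and the sampled windows reached 7.05% and 4.80% there.

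The nearest BJ1 KAP1 peak was often itself a shared one. Among the 1850 JB1-only peaks within 1 kb, it was met by another JB1 KAP1 peak at 1352 (73.1%, 71.0 to 75.1%), whereas 45.0% of all autosomal BJ1 KAP1 peaks were met by a JB1 KAP1 peak. At the other 498 the nearest BJ1 peak was not met, so that each line had a peak of its own within 1 kb of the other's. The JB1-only peaks lay at a median of 6.6 kb from the next KAP1 peak of their own list, with 32.0% within 1 kb of it. Another JB1-only peak lay within 1 kb of 239 of them (5.02%).

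The 5 peaks farthest from any BJ1 KAP1 peak were 300 to 600 bp wide. The peaks at chr7:102951751-102952050 and chr16:74104801-74105400 were both 258 kb away, the latter in an intron of *Robo2*, which encodes an axon guidance receptor. A peak at chr10:63628951-63629400, in an intron of the catenin gene *Ctnna3*, was 210.3 kb away, and another at chr8:10277101-10277700, in an intron of the myosin gene *Myo16*, was 190.35 kb away. The last, at chr6:44379901-44380500, was intergenic and 187.35 kb away. All but the last had fewer than 20 percent of their words repeated in the genome (0% at the chromosome 7 peak and 19.3% at *Robo2*), against 66.7% in the last.

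The gene context of the JB1-only peaks varied with this distance. Among those within 1 kb of a BJ1 KAP1 peak, 1.68% were at promoters (1.14 to 2.37%), 16.6% in introns and 81.1% intergenic, and 79.8% (77.9 to 81.6%) consisted mostly of repeated sequence, as defined further on. Among those more than 10 kb away, 4.78% were at promoters (3.76 to 6.0%), 27.5% in introns and 63.4% intergenic, and 39.6% (37.1 to 42.1%) were mostly repeated. The peaks at 1 to 10 kb lay between these, with 4.55% at promoters, 72.9% intergenic and 51.4% mostly repeated. The share with TGCCGC varied less, from 18.97% within 1 kb to 22.5% at 1 to 10 kb and 21.6% beyond.

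Most JB1-only peaks were intergenic. By GENCODE M1, 3483 (73.1%, 71.8 to 74.4%) lay outside genes, 1000 (21.0%) in introns, 82 (1.72%) in coding exons, 19 (0.399%) in UTRs, 13 (0.273%) in other exons and 167 (3.51%, 3.00 to 4.07%) within 1 kb of a transcription start (promoters). The shared peaks had 72.6% intergenic, 20.6% intronic and 4.53% promoter peaks, while the BJ1-only peaks had 59.3%, 27.1% and 8.96%. In the sampled windows these shares were 56.4%, 33.6% and 5.05%. The nearest transcription start was at a median of 33.7 kb (32.1 to 35.0 kb), compared with 29.3 kb for shared peaks, 20.4 kb for BJ1-only peaks and 28.5 kb for the sampled windows, and 23.95% of the JB1-only peaks were more than 100 kb from any start. At equal width the sets were ordered differently at promoters: among peaks of 300 bp the promoter share was 4.31% in JB1-only, 4.29% in shared and 4.00% in BJ1-only peaks, whereas at 600 bp it was 3.16%, 5.46% and 10.3%.

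**Figure D3:**
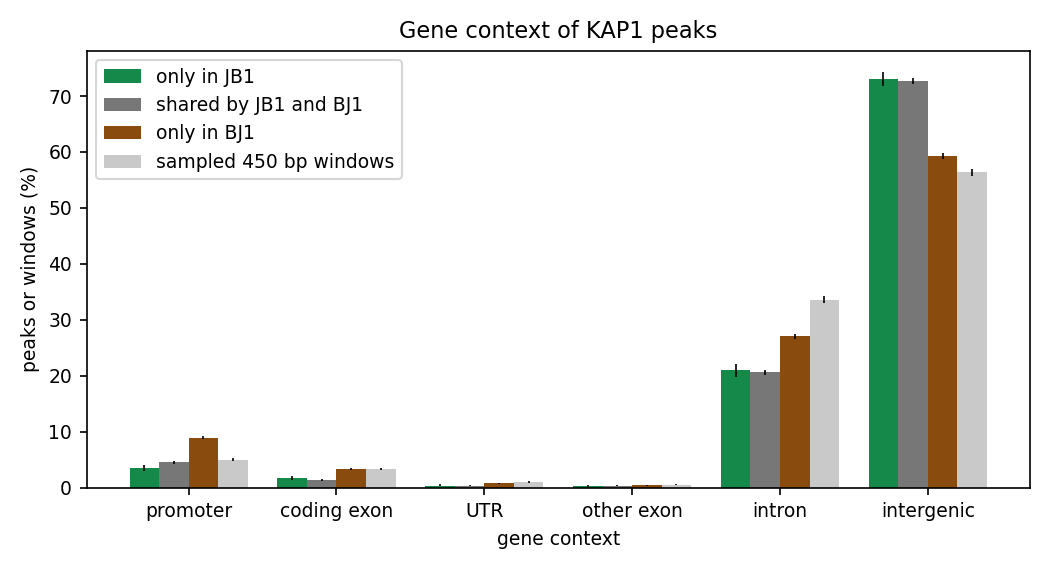
Gene context (GENCODE M1) of the JB1-only, shared and BJ1-only KAP1 peaks and of the sampled windows, as a share of each set (%), with exact 95% intervals. Intergenic peaks made up 73.1% of the JB1-only and 72.6% of the shared set and 59.3% of the BJ1-only set.

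At 97 of the 4764 peaks (2.04%) the promoter was that of a protein-coding gene, against 2.98% of the shared and 7.41% of the BJ1-only peaks. At 41 peaks a protein-coding start lay inside the peak. The start of any annotated transcript of a protein-coding gene was counted, so that it is not always the main promoter. In 28 of these peaks none of the words examined was repeated in the genome. Over the 41 peaks the median GC content was 57.7%, 19 held TGCCGC, and 23 were more than 10 kb from any BJ1 KAP1 peak while 7 were within 1 kb. The examples that follow were chosen after their values were seen and stand for no gene group. The peak over a start of *Smarca5*, the ATPase of ISWI remodelling complexes, was 600 bp wide, with 1 TGCCGC and 37.2 kb to the nearest BJ1 KAP1 peak. In it 45.6% of the words were repeated in the genome. The peak at *Rsf1*, whose product partners with SMARCA5, was 300 bp wide and 28.95 kb from a BJ1 peak, and that at *Sin3b*, a scaffold of histone deacetylase complexes, was 450 bp wide and 45.45 kb away. Others lay over a start of *Rad51ap1*, a homologous recombination factor (450 bp, 65.7 kb away), *Cycs*, the cytochrome c gene (450 bp, 30.6 kb), and *Tfpi2*, a serine protease inhibitor (450 bp, 57.0 kb, with 3 copies of TGCCGC). In contrast, the peaks over *Esr1*, the oestrogen receptor gene (1200 bp, 2 copies of TGCCGC), and *Igfbp2*, an IGF-binding protein gene (450 bp, 1 copy), were each separated from a BJ1 KAP1 peak by a single window of 150 bp. In the *Esr1* peak 94.9% of the words were repeated. Apart from *Smarca5* and *Esr1*, no word examined was repeated in the peaks named here.

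Of 33 imprinted genes found in the annotation, 3 (9.09%; *Grb10*, *H13* and *Mcts2*) held a JB1-only peak in their body and 2 (6.06%; *Mcts2* and *Meg3*) had one within 1 kb of a start. Over all genes these shares were 3.10% (1075 of 34653) and 0.525% (182). The imprinted genes were longer, with a median of 30.7 kb against 5.92 kb, and BJ1-only peaks lay in the body of 42.4% of them against 23.4% of all genes and at a start of 15.2% against 10.2%. Shared peaks lay in the body of 9.09% of them against 11.6% of all genes and at a start of 0 of them against 3.56%. The shared set leaves out peaks that overlapped a ZFP57 peak, and ZFP57 acts at imprinting control regions. These were 4996 of the 31173 JB1 peaks that overlapped a BJ1 KAP1 peak. Their part in these shares was not tested, so the 0 does not show that KAP1 was missing at imprinted starts. Over protein-coding genes alone, 4.34% held a JB1-only peak in the body and 0.490% at a start, and 33.0% and 12.8% a BJ1-only peak. The JB1-only shares rest on 3 and 2 genes of a short list. Neither their difference from all genes nor the part of gene length in these shares was tested. *Mcts2* is an imprinted retrogene inside *H13*, so that a single peak accounts for both. This peak (chr2:152512201-152512950) was 750 bp wide, covered the *Mcts2* start, and held the 3 copies of TGCCGC shown above and no repeated word. The nearest BJ1 KAP1 peak was 14.4 kb away, the nearest other JB1 KAP1 peak 102.0 kb, and the nearest ZFP57 peak 475.5 kb in JB1 and 1707.6 kb in BJ1. At *Meg3*, a maternally expressed long non-coding RNA, the peak was 450 bp wide (chr12:110778751-110779200), 11 bp from the start, with 1 TGCCGC and 1 GGCCGC. A BJ1 KAP1 peak lay 1.8 kb from it, and in each line the nearest ZFP57 peak was 11.7 kb away. The *Grb10* peak (chr11:11832901-11833350), 450 bp wide with 2 copies of TGCCGC, lay in a UTR at 105.3 kb from the gene start and 56.85 kb from a BJ1 KAP1 peak.

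In the other gene lists at most 1 gene or a share near that of all genes held a JB1-only peak in the body. Of 22 pluripotency genes, 1 (4.55%), *Esrrb*, an orphan nuclear receptor gene, held a single intronic peak of 300 bp (chr12:87761251-87761550), 59.2 kb from its start, and none had a peak at a start. Of 31 genes for KAP1, its partners and other factors of chromatin silencing and DNA methylation, 0 had a JB1-only peak in the body or at a start, and of 39 *Hox* genes also 0. In lists this short, counts of 0 or 1 cannot be told from the 3.10% of all genes. Of the 25 protocadherin cluster genes 1 (4.0%), *Pcdha11*, held JB1-only peaks in its body, 3 in number. Of the 341 gene records named *Zfp* and a number with no further letter, which include many KRAB zinc finger genes, 12 (3.52%) held a JB1-only peak in the body and 1 (0.293%), *Zfp438*, at a start, while 19.4% held a shared peak and 38.1% a BJ1-only peak in the body. Over all genes the latter shares were 11.6% and 23.4%, and over protein-coding genes they were 15.99% and 33.0%, beside 4.34% with a JB1-only peak. *Zfp385b*, whose symbol ends in a letter and which was not in this list, also had a start inside a JB1-only peak (chr2:77399851-77400300, 450 bp). The *Zfp438* promoter peak (chr18:5334001-5334600) was 600 bp wide, with 64.7% GC, and 1.95 kb from a BJ1 KAP1 peak. In coding exons, *Zfp704* was met by a peak of 300 bp and *Zfp808* by a peak of 750 bp. Codons for the linker between zinc fingers, searched in both strands after the sequences were seen, were found in 9 JB1-only peaks (0.189%), 0.428% of the shared, 0.232% of the BJ1-only peaks and 0.0835% of the sampled windows. The highest number of them in a JB1-only peak was 7, at chr17:17110051-17110950. By number of peaks, the gene model *Gm20388* led with 20, over a length of 4435 kb on chromosome 8.

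The JB1-only peaks were spread over all 19 autosomes in near proportion to the JB1 KAP1 peaks. Their share of the JB1 KAP1 peaks ranged from 11.95% on chromosome 15 (164 of 1372) to 14.9% on chromosome 6 (322 of 2166), with a median of 13.1%. The pooled share of 13.2% lay inside the 95% interval of 18 of the 19 chromosomes, the exception being chromosome 6 (13.4 to 16.4%). Their density ranged from 1.45 per Mb on chromosome 11 to 2.48 per Mb on chromosome 7. By the same rule 397 of 2425 JB1 KAP1 peaks on X (16.4%) and 31 of 114 on Y (27.2%) were found only in JB1, although these chromosomes were not included. In these male lines X came from JF1 and Y from B6 in JB1, and the reverse in BJ1. On these chromosomes the lines thus differ in strain, unlike on the autosomes, and the part of this in the shares was not tested.

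**Figure D4:**
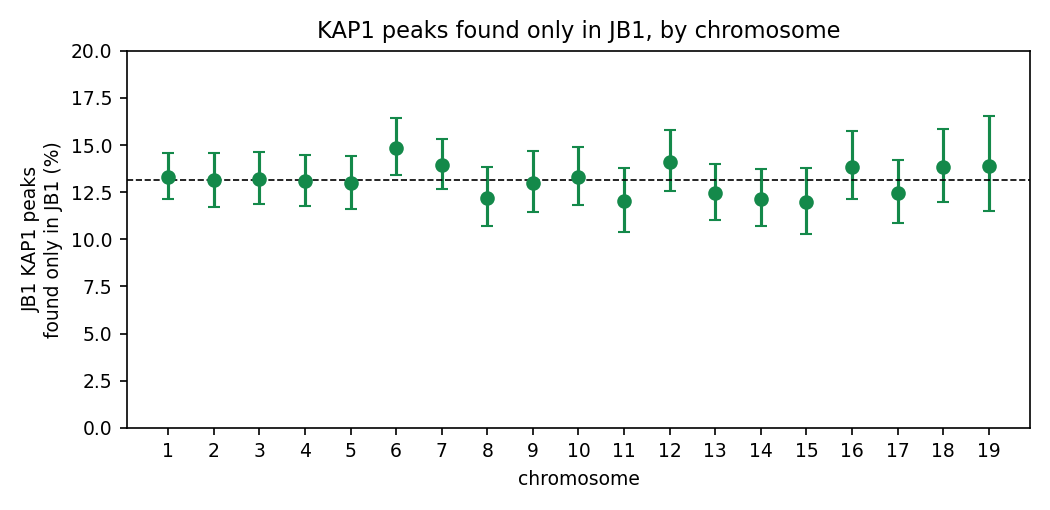
Share of JB1 KAP1 peaks found only in JB1 (%) on each autosome, with exact 95% intervals, and the pooled share of 13.2% as a dashed line. The shares ran from 11.95 to 14.9%, and the interval of chromosome 6 alone lay above the line.

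At a scale of 1 Mb, 1915 of 2482 bins (77.2%) held at least 1 JB1-only peak and 668 held exactly 1. The 15 bins with 10 or more held 171 peaks. The fullest bin, chr12:19000001-20000000, had 15 JB1-only peaks among 78 JB1 and 98 BJ1 KAP1 peaks. It was followed by chr18:3000001-4000000 with 14, and by chr7:27000001-28000000 with 13, which contains *Cyp2*, *Nlrp* and vomeronasal receptor genes. A bin of chromosome 8 (126000001-127000000) also had 13, among 30 JB1 and 36 BJ1 KAP1 peaks. There the peaks lay within 99.0 kb, were 300 to 600 bp wide and had a median GC content of 68.0%, and in 12 of the 13 every word examined was repeated in the genome while in 1 any word reached 100 copies. In the chromosome 18 and chromosome 7 bins, 13 peaks each held a word with 100 or more copies, and their median GC contents were 44.6% and 37.8%.

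Sequence repeated elsewhere in the genome made up much of the JB1-only peaks. As the mm9 sequence at hand carries no repeat annotation, words of 31 bases, taken every 10 bp, were counted in the whole genome on both strands. In 2799 JB1-only peaks (58.8%, 57.3 to 60.2%) more than 50 percent of the words occurred at least 2 times, against 64.1% of the shared, 27.7% of the BJ1-only peaks and 12.4% of the sampled windows. With a minimum of 100 copies the shares were 25.1%, 30.1%, 7.38% and 5.13%. In 976 JB1-only peaks (20.5%) no word was repeated, compared with 10.4% of the shared and 30.2% of the BJ1-only peaks. At equal width the share of mostly repeated peaks was higher in the JB1-only than in the shared set from 450 to 750 bp. It was 57.5% and 51.0% at 450 bp, 63.9% and 55.2% at 600 bp, and 70.5% and 65.1% at 750 bp. At 300 bp it was 51.2% and 51.5%, at 900 to 1050 bp 78.8% and 79.3%, and at 1200 bp or more 88.3% and 92.2%. Reads of 50 bp that fit several copies cannot be placed on 1 of them, and the part of this in the presence or absence of a peak was not tested.

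Some sequences recurred within the JB1-only peaks themselves. Words present in at least 1% of them (48 peaks) were joined into a group when over 50 percent of the peaks with a word were already in it, which gave 5 groups. A peak could hold words of several groups, so that the groups are not separate sets of peaks. The words were chosen on the JB1-only peaks, so that their shares in the other sets are given for description only. Words of any group were found in 1552 JB1-only peaks (32.6%), 7.49% of the shared, 3.42% of the BJ1-only peaks and 1.24% of the sampled windows. The word found in most peaks of each group is given below with its position in an example on chromosome 1, and no repeat family was assigned to it. The examples of groups 3 and 4 lie close to each other.
Group 1, chr1:3610924-3610954, minus strand: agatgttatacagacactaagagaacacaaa
Group 2, chr1:8149222-8149252, plus strand: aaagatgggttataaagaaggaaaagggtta
Group 3, chr1:22148576-22148606, plus strand: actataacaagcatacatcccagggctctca
Group 4, chr1:22148376-22148406, plus strand: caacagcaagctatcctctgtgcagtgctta
Group 5, chr1:22079240-22079270, minus strand: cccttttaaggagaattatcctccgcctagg

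Group 1 was found in 998 JB1-only peaks (20.9%), against 1.89% of the shared and 3.01% of the BJ1-only peaks, and its leading word in 413. These peaks were on all 19 autosomes, had a median GC content of 37.1%, were intergenic in 83.6% and almost never held TGCCGC (0.401%). Their median distance to a BJ1 KAP1 peak was 1050 bp, but 281 (28.2%) were more than 10 kb away. Group 2 was found in 215 JB1-only peaks (4.51%) and 203 shared peaks (0.775%). All 215 lay within 600 bp of a BJ1 KAP1 peak, at a median of 300 bp, and none held TGCCGC. The motif was present in most peaks of groups 3, 4 and 5. In group 3, with 291 peaks (6.11%) and 3.17% of the shared, TGCCGC was present in 68.7%, and in group 4, with 159 peaks (3.34%) and 2.49% of the shared, in 88.1%. Group 5 was the smallest, with 49 JB1-only peaks (1.03%) and 459 shared peaks (1.75%). TGCCGC was present in 73.5% of its JB1-only peaks, which lay farther from BJ1 KAP1 peaks than the others, at a median of 15.9 kb. The 3212 JB1-only peaks without a word of any group (67.4%) were at a median of 4.2 kb from a BJ1 KAP1 peak, and 23.5% of them held TGCCGC.

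**Figure D5:**
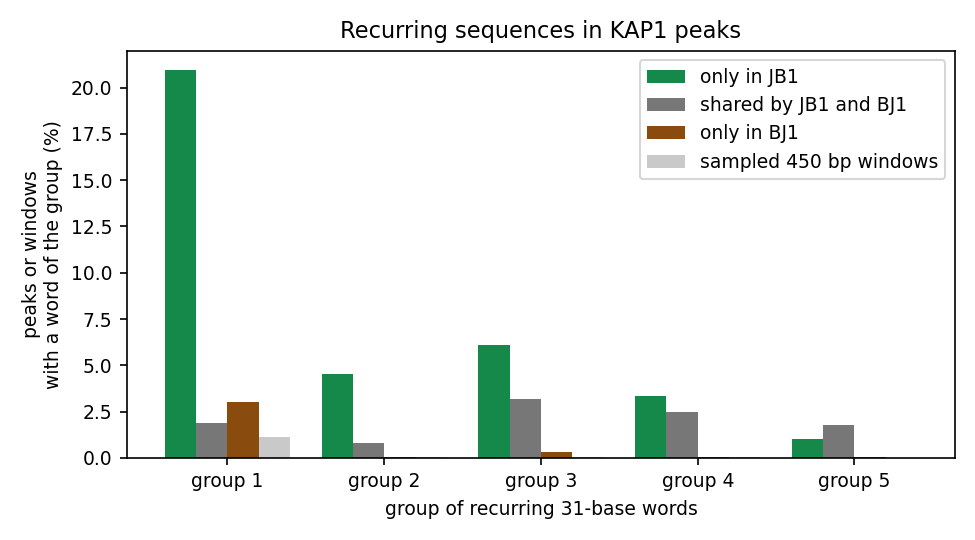
Share (%) of the JB1-only, shared and BJ1-only KAP1 peaks and of the sampled windows that held a word of each of the 5 groups of recurring 31-base words, which were chosen on the JB1-only peaks. Group 1 was found in 20.9% of the JB1-only peaks and in at most 3.01% of the other sets.

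The motif of ZFP57 was common in the JB1-only peaks, although by selection none of them overlapped a ZFP57 peak. TGCCGC was present on either strand in 994 (20.9%, 19.7 to 22.0%), compared with 22.4% of the shared and 8.28% of the BJ1-only peaks, and with 2.76% of all 5318885 windows of 450 bp in the genome. At equal width the JB1-only share was above both other sets up to 1050 bp: among peaks of 450 bp it was 19.6% in JB1-only, 11.97% in shared and 6.29% in BJ1-only peaks, and among those of 1200 bp or more it was 51.7%, 55.1% and 15.2%. Peaks that overlapped a ZFP57 peak had been left out of all sets, but unequally, with 4996 of the 31173 JB1 peaks that overlapped a BJ1 KAP1 peak and 237 of the 5001 that did not, and the part of this in the motif shares was not tested. At least 2 copies were present in 225 JB1-only peaks (4.72%), 5.85% of the shared and 1.11% of the BJ1-only peaks. GGCCGC was present in 432 (9.07%), against 12.6%, 8.80% and, over all windows, 2.23%. The median distance of the JB1-only peaks to the nearest ZFP57 peak was 67.4 kb for the 10667 peaks of JB1 and 623 kb for the 1318 peaks of BJ1, and 204 (4.28%) were within 1 kb of a ZFP57 peak of JB1.

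The highest number of TGCCGC copies was 10, in the intergenic peak of chromosome 2 printed above, which was 27 kb from a BJ1 KAP1 peak. The next had 6 (chr17:72970351-72970950), 17.3 kb from the start of the receptor tyrosine kinase gene *Alk*, and 5 (chr18:30166201-30166800). Peaks with 4 copies included chr6:51372001-51372600, 10.1 kb from the start of *Nfe2l3*, a transcription factor gene, and chr11:35989501-35989950 in an intron of the teneurin gene *Odz2*. The base composition of the JB1-only peaks was lower in GC than that of the other KAP1 peaks, with a median of 43.7% against 46.5% in shared and 47.7% in BJ1-only peaks and 41.8% in the sampled windows. The ratio of observed to expected CpG was 0.243 at the median, between that of the shared (0.355) and the BJ1-only peaks (0.214), and was 0.155 in the sampled windows.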

How the data were processed

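The 4 peak lists deposited by the authors give, per the file headers and values, the start and end of each peak in mm9, counted from 1, and no other unit. The authors sequenced 50 bp single-end reads, trimmed them (CASAVA 1.8.2, Trim Galore) and aligned them with Bowtie 0.12.7 allowing up to 2 mismatches. They defined peaks with MACS, separately for each library, at the P-value threshold that the paper gives for its peaks. Read depth, peak height and replicates are not given, so that no test was possible, and intervals cover counting error only.

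Overlaps, distances, gene context (GENCODE M1) and sequence (NCBIM37) were computed in Python 3.11.15 with numpy 2.4.6, pandas 2.3.3 and scipy 1.17.1, and checked on simulated lists with known answers. The genome was not repeat-masked, so repeated 31-base words replaced the planned share of masked bases. Named peaks were the 5 widest, the 5 farthest, the 5 with most TGCCGC, those at starts of listed genes, the fullest bins, and the first 3 of 300 bp with TGCCGC within 1 kb of a protein-coding start, while the peaks named at protein-coding starts, and the word groups, were picked with their values in view. The regions and gene lists were chosen with earlier results of these data known.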

Additional observations from a re-analysis of the deposited data

How the results depend on the processing

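The number of JB1-only peaks rests on how a counterpart is defined. As reported it was 4764, and 19 of the 36 values under alternatives stayed within 1.5 times the count or within the interval of the share or median. Counting a BJ1 KAP1 or ZFP57 peak within 1 kb as a counterpart left 2880 peaks, with 4.69% at promoters, 67.8% intergenic and a median distance of 10350 bp to BJ1 KAP1. Within 5 kb, 1874 remained in the set, with 4.86%, 64.0% and 19575 bp. A requirement of 50% of bases covered changed the distance to 1800 bp. With only peaks of at least 600 bp there were 1503, with a median width of 600 bp, 75.9% intergenic and a distance of 1050 bp. A promoter window of 2 kb gave 5.56% promoter peaks, one of 500 bp 2.75%, and protein-coding genes only 2.04% promoter and 76.1% intergenic peaks. The longer distances follow from the construction of the wider rules. Including X and Y or ignoring ZFP57 left all 5 values within these limits. No paired analysis was possible because each line and antibody has 1 library and the labels give no replicate numbers. Depth, enrichment and binding cannot be told apart as sources of the different lengths of the lists.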
